A study of Mus musculus with 32 samples.

Results

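Brown adipose tissue (BAT) was set against skeletal muscle in wild-type mice, by RNA abundance over all genes. The comparison used 8 of the 32 RNA-seq libraries of the series, chosen by their labels alone: 4 of BAT and 4 of muscle, each from male C57BL/6J mice labelled WT. The other libraries were of heart and liver and of mice with a SMIM30 knockout, labelled Mut, in groups of 4. Per the labels, tissues were snap frozen, RNA was taken up on magnetic beads and libraries kept the strand. No treatment was named. The age of the mice, the fat depot and the muscle dissected were not given in the sources used here, and neither was whether libraries of the same number came from the same mouse. All values are TPM (transcript abundance per length, scaled to the same total in each library), summed per gene, with mean ± SD over 4 libraries. Differences are in log2(TPM + 1), BAT minus muscle, with SE, and were tested with limma. A gene was tested when its mean over the 8 libraries was at least 1 TPM and called when its adjusted p was under 0.05. The depth behind the values is unknown, since TPM keeps none, and differences of genes near 1 TPM are understated on this scale.

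Both tissues make heat and both come from embryonic mesoderm that expresses early muscle genes. Brown adipocytes burn fatty acids in mitochondria whose inner membrane carries uncoupling protein 1, which lets protons return without making ATP. Noradrenaline starts this through beta adrenergic receptors and cyclic AMP. Muscle fibres make heat when they shiver, through actomyosin and calcium pump ATPases, and many of their metabolic enzymes are muscle isoforms encoded by genes of their own.

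The 250 bases before the RefSeq start (GRCm38.p6) are printed for both partners of 3 isoform pairs. Those of a fast myosin and a calcium pump gene are printed too. Capitals mark CAGCTG, the core of an E-box that myogenic factors are known to bind. It reads the same on both strands.
Pgam2 (higher in muscle; chr11:5803797-5804046, - strand): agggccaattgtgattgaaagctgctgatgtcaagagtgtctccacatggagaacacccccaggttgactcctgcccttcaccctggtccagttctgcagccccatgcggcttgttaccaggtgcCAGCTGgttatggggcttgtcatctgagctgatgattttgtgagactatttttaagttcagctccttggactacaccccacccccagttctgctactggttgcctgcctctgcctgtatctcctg
Pgam1 (higher in BAT; chr19:41911621-41911870, + strand): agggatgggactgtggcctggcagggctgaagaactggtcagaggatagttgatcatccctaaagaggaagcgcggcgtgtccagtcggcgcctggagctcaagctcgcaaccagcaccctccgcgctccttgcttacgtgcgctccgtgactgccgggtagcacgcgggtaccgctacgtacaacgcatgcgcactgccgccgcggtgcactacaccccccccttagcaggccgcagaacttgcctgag
Pygm (higher in muscle; chr19:6384158-6384407, + strand): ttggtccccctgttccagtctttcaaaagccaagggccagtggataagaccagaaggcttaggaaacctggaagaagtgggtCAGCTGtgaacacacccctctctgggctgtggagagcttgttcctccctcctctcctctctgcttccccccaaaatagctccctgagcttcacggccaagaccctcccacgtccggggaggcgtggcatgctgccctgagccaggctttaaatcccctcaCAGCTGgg
Pygb (higher in BAT; chr2:150786546-150786795, + strand): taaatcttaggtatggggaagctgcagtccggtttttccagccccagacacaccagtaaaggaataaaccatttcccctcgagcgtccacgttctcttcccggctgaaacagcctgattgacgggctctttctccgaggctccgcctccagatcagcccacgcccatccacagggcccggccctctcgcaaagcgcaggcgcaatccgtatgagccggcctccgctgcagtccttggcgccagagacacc
Ucp3 (higher in muscle; chr7:100472741-100472990, + strand): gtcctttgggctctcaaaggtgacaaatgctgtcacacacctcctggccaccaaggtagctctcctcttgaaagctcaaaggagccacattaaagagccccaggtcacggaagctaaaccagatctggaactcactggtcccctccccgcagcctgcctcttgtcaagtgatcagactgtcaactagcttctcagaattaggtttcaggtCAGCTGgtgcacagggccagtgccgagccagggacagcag
Ucp1 (higher in BAT; chr8:83290098-83290347, + strand): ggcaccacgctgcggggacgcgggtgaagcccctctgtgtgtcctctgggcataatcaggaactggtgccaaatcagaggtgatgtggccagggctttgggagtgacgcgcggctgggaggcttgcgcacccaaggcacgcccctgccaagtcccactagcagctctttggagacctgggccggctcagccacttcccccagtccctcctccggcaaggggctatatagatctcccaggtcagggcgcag
Myh4 (higher in muscle; chr11:67237562-67237811, + strand): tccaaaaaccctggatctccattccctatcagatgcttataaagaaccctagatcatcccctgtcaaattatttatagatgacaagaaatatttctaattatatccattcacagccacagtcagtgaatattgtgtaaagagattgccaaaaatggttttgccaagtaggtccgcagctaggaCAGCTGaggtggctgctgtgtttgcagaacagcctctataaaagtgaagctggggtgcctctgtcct
Atp2a1 (higher in muscle; chr7:126463074-126463323, - strand): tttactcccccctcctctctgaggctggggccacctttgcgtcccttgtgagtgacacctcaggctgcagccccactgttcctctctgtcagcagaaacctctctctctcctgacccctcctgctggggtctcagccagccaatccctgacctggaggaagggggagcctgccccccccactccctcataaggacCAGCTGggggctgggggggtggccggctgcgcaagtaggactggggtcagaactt
The 5 printed genes that were higher in muscle hold the 6 letters, Pygm at 2 places, and their 3 BAT partners do not. Of the 13 isoform pair genes called higher in muscle, 9 had a promoter in the table and 5 of these held the motif. Of the 16 called higher in BAT, 13 had one and 2 held it (Cox8b and Cpt1a). The share over all 32851 promoters cut to this length was 13.0%. Among matched fast fibre genes it was 5 of 10, among slow fibre genes 5 of 10 and among sarcomere and Z-disc genes 8 of 18. For brown fat thermogenic genes it was 2 of 14, for adipocyte genes 4 of 16, for fatty acid oxidation genes 2 of 17 and for pyruvate dehydrogenase and citric acid cycle genes 2 of 19. Counted per gene, as these lists are, the share over all 27025 genes was 14.7%. The motif and the printed genes were chosen after the expression values and the matches were seen, so the printed set overstates the split, and a match is a description of letters only.

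Each tissue carried its own defining markers. The summed level of 8 brown adipocyte markers was 6261 ± 456 TPM in BAT and 138 ± 10.6 TPM in muscle. The summed level of 10 skeletal muscle fibre markers was 85903 ± 8980 TPM in muscle and 1353 ± 45.4 TPM in BAT. A low level of each tissue's genes was read in all the others. Hepatocyte markers stood at 0.860% to 1.12% of their liver level in BAT and at 1.03% to 1.38% in muscle. Muscle fibre markers stood at a median of 1.52% of their muscle level in BAT and 1.52% in liver. Brown markers stood at a median of 2.81% of their BAT level in muscle, 2.37% in heart and 2.51% in liver. Levels near these shares are therefore given with those in heart and liver and are not read as expression; the origin of this floor was not tested. The plot of marker levels outside their source tissue shows it.

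**Figure D1:**
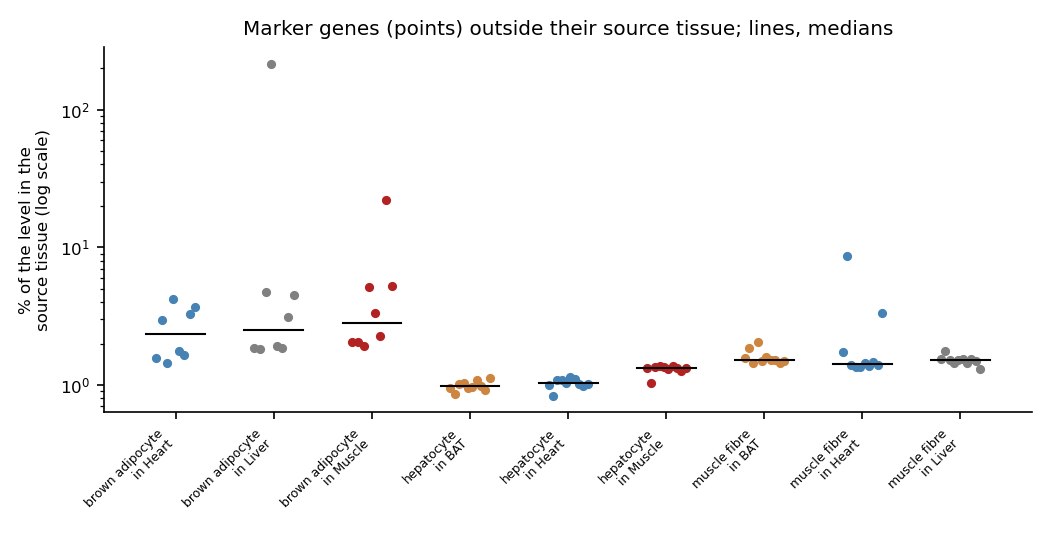
Level of each marker gene in a tissue other than its source, as a percent of its level in the source tissue (y axis, log scale), for brown adipocyte markers (source BAT), hepatocyte markers (liver) and muscle fibre markers (muscle). Each point is a gene (ratio of wild-type means), lines are medians: hepatocyte markers in BAT lie between 0.860% and 1.12%, and the point at 216.0% is Elovl3, which liver itself expresses.

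The BAT libraries fell into 2 pairs: 1 and 2 correlated at 0.993 and 3 and 4 at 0.992, against 0.979 to 0.981 across pairs (Pearson, log2(TPM + 1), across genes). Libraries 3 and 4 held more macrophage RNA, with 8 summed markers at 40.7, 58.3, 198 and 125 TPM in BAT libraries 1 to 4 and 34.8 to 44.6 TPM in muscle. Mitochondrially encoded RNA made up 36.7% ± 1.10 of TPM in BAT and 27.2% ± 2.01 in muscle, which scales all other genes.

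The tissues differed at most genes. Of 12192 genes tested, 9260 were called (76.0%), 5121 higher in BAT (42.0%) and 4139 higher in muscle (33.9%). The counts of gene lists below are to be read beside these shares. By 2-fold or more, 2212 were higher in BAT (18.1%) and 1784 in muscle (14.6%). The 4 values of 1 tissue lay wholly above the 4 of the other for 4772 genes in BAT and 3886 in muscle, together 71.0%. The median difference over all genes was 0.11, became 0 when libraries were scaled by median ratios, and was 0.26 without mitochondrial and the 10 most abundant other genes. BAT genes were 55.3% of calls as deposited, 49.2% with median-ratio scaling and 62.8% with the latter rescaling. With BAT libraries 1 and 2 alone there were 4530 calls for BAT and 4593 for muscle, and with 3 and 4 alone 5412 and 3870. No called gene turned to the other tissue in either case. Fewer cells of a type and less RNA per cell cannot be told apart in such bulk libraries.

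The 15 highest in BAT were Fasn, Ucp1, Cidea, Prkar2b, Plin1, Adrb3, Tkt, Slc36a2, Cidec, Tmem45b, Otop1, Clstn3, Scd1, Trarg1 and S100b. Their differences ran from 4.90 for S100b to 5.73 for Fasn. Plin1 and Cidec coat lipid droplets, Scd1 desaturates fatty acids and Prkar2b is a subunit of protein kinase A. The 15 highest in muscle were Neb, Myh4, Mybpc2, Atp2a1, Casq1, Pvalb, Myoz1, Tnnt3, Ampd1, Mylpf, Actn3, Acta1, Myot, Tnni2 and Jsrp1, from -5.96 for Jsrp1 to -6.30 for Neb. In the lower tissue these genes stood at 1.22% (Neb) to 3.26% (Scd1) of the higher one, near the floor, which may hold down their fold changes. Floor and low expression were not told apart for them. Levels at or under 4% of the higher tissue were found for 407 of the genes called in muscle and 120 of those called in BAT.

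**Figure D2:**
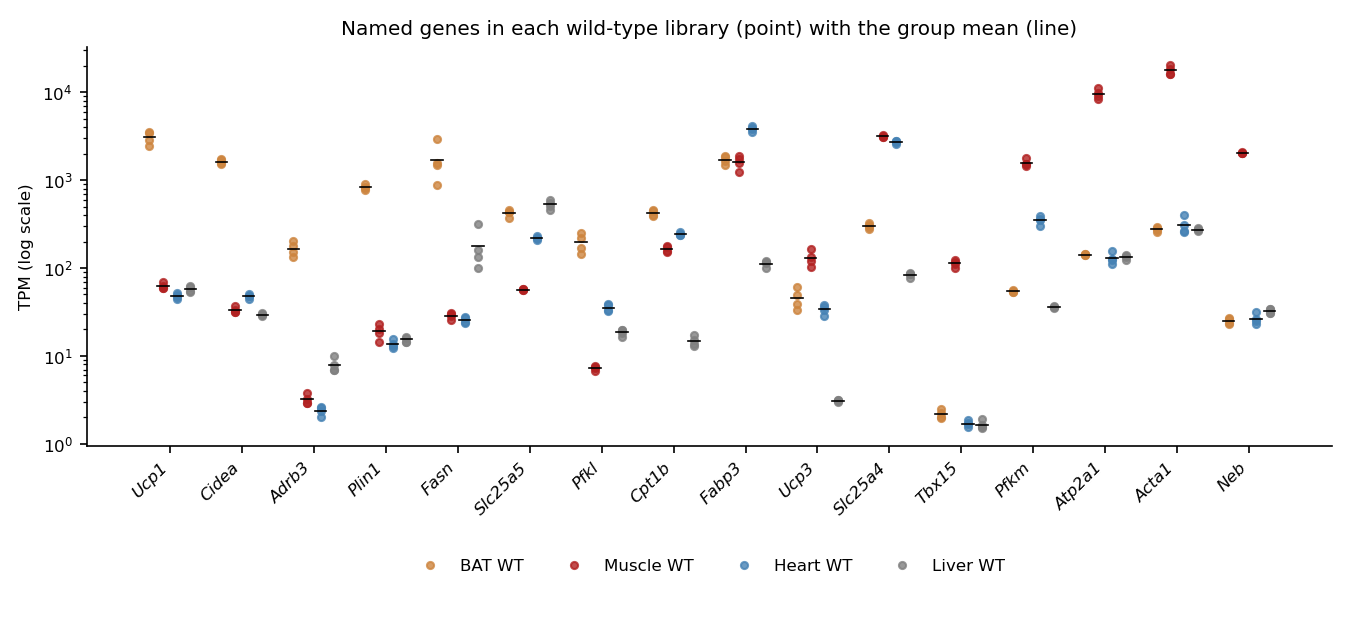
TPM (y axis, log scale) of 16 named genes in each wild-type library, with 4 points and a mean line for BAT, muscle, heart and liver. Ucp1 lies between 2444 and 3565 TPM in BAT and near 60 TPM elsewhere, Fabp3 overlaps between BAT and muscle, and Acta1 in BAT (260.0 to 292 TPM) lies with its heart and liver values.

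Genes of brown fat heat production were higher in BAT. Of 18 thermogenic genes tested, 17 were called higher in BAT and 0 higher in muscle, with a median difference of 3.99. Ucp1, which uncouples respiration (chromosome 8, 83290352 to 83298452, GRCm38), was read at 2444, 2837, 3417 and 3565 TPM in the 4 BAT libraries. In muscle it was read at 68.8, 58.8, 60.0 and 63.2 TPM, beside means of 48.4 TPM in heart and 57.4 TPM in liver. BAT was 48.9-fold higher, with a difference of 5.58 ± 0.12 (adjusted p = 2.53e-11). All BAT values lay far above all muscle values, and the muscle values were those of the floor. Cidea, a lipid droplet protein of brown adipocytes, was read at 1738, 1676, 1560 and 1529 TPM in BAT and at 32.0 to 36.8 TPM in muscle (5.56 ± 0.07, adjusted p = 1.72e-12). Dio2, the deiodinase that makes active thyroid hormone inside brown fat, spread widely in BAT at 15.5, 5.31, 34.4 and 54.6 TPM, and stayed between 0.604 and 0.815 TPM in muscle. Its difference was 3.64 ± 0.54 (adjusted p = 0.000115), and the 2 lower BAT values belong to libraries 1 and 2. Otop1, a proton channel, averaged 85.6 ± 7.23 TPM in BAT and 1.53 ± 0.196 TPM in muscle. Letmd1, a mitochondrial protein needed for brown fat heat, averaged 311 ± 21.2 and 10.7 ± 0.342 TPM. The smallest called differences of the list were in respiratory chain subunits that muscle also has, 1.53 ± 0.08 for Cox8b and 1.27 ± 0.07 for Cox7a1.

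The member of this list that was not called was Ppargc1a, the coactivator of mitochondrial biogenesis, singled out after its values were seen. It was read at 7.89, 6.89, 11.6 and 22.0 TPM in BAT and 10.3, 10.3, 11.2 and 11.3 TPM in muscle. The groups overlapped, with a difference of 0.02 ± 0.28 (adjusted p = 0.948), and the BAT spread again followed the 2 pairs of libraries. With BAT libraries 1 and 2 alone Ppargc1a was lower in BAT (-0.49, adjusted p = 0.000972), and with 3 and 4 alone it was higher (0.53, adjusted p = 0.0399). Its relative Ppargc1b was higher in BAT, at 17.8 ± 1.49 against 2.20 ± 0.248 TPM (2.55 ± 0.09).

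General adipocyte genes were also higher in BAT, 21 of 22 tested, with a median difference of 3.89. Fabp4, the adipocyte fatty acid carrier, was read at 11496, 12491, 11647 and 9972 TPM in BAT and at 563, 614, 611 and 467 TPM in muscle. This is a 20.2-fold gap, and muscle lay above liver (274 TPM) but below heart (917 TPM). Adiponectin (Adipoq) averaged 552 ± 53.8 TPM in BAT and 18.4 ± 5.17 TPM in muscle. Pparg, the master regulator of adipocytes, averaged 156 ± 28.3 and 4.47 ± 0.237 TPM. The hormones leptin (Lep) and resistin (Retn) were uneven across the BAT libraries. Lep was read at 26.5, 43.5, 109 and 85.8 TPM and Retn at 31.0, 56.2, 12.8 and 10.0 TPM, so libraries 3 and 4 were high for leptin and low for resistin. In muscle they stood at 3.58 to 9.14 TPM and 1.25 to 4.78 TPM. Both were called (3.23 ± 0.41 and 2.64 ± 0.49). In muscle Adipoq, Lep and Retn lay above their means in heart (9.84, 2.10 and 0.685 TPM), and whether fat in the dissected muscle accounts for this was not tested.

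Regulators of the brown fat programme did not all favour BAT. Of 22 tested, 13 were called higher in BAT and 5 higher in muscle, beside 42.0% and 33.9% of all genes tested. Their median was 0.49. Prdm16, a zinc finger protein that promotes brown fat identity, was read at 2.61, 3.18, 3.19 and 3.41 TPM in BAT and at 0.556 to 0.913 TPM in muscle (1.25 ± 0.11). Ebf2, which marks brown preadipocytes, averaged 12.4 ± 0.974 and 1.31 ± 0.225 TPM (2.54 ± 0.10). Zic1, a marker of classical brown fat, was low in both at 1.71 ± 0.423 and 0.379 ± 0.296 TPM but above its heart and liver means of 0.0558 and 0.0533 TPM. The 5 genes against the list were Tbx15, Rxrg, Esrrb, Esrrg and Zfp516. Tbx15, a T-box factor of mesoderm known from both lineages, was read at 2.00, 1.96, 2.47 and 2.26 TPM in BAT and at 122, 118, 101 and 112 TPM in muscle. Its difference was -5.17 ± 0.09 (adjusted p = 5.4e-12), and the BAT level was near that of heart (1.70 TPM) and liver (1.66 TPM). The nuclear receptor gene Rxrg averaged 15.1 ± 1.35 TPM in BAT and 38.9 ± 5.56 TPM in muscle, and Esrrg 5.66 ± 1.10 and 10.3 ± 0.827 TPM. For these 2, BAT was above liver, so that the lower level was not at the floor.

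All 15 myogenic regulators tested were higher in muscle, with a median of -2.58. Myf6, the myogenic factor of mature fibres, averaged 81.5 ± 12.8 TPM in muscle and 1.23 ± 0.151 TPM in BAT, beside 1.11 TPM in heart. Myod1, which sets muscle fate, averaged 9.31 ± 2.22 and 0.165 ± 0.0184 TPM. Mef2c, a partner of these factors, averaged 151 ± 9.03 and 4.18 ± 0.683 TPM, and Lbx1, a homeobox gene of migrating muscle precursors, 31.0 ± 3.57 and 0.357 ± 0.0362 TPM. The BAT levels of these named genes were 1.15% to 2.77% of muscle. Not all members were so low in BAT. Mef2a averaged 37.1 ± 1.39 TPM in muscle and 16.0 ± 2.69 TPM in BAT, and Mef2d 61.6 ± 1.81 and 28.8 ± 5.9 TPM. Tead4 overlapped between the tissues (-0.47 ± 0.16).

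Hox genes, which record position along the body axis, split by paralog group. They were described after their values were seen. Of 21 tested, 10 were called higher in BAT and 10 higher in muscle. All 9 of groups 3 to 6 were higher in BAT (median 0.94) and all 9 of groups 9 to 13 were higher in muscle (median -2.50). Hoxd4 was called only narrowly, with overlapping values at 1.39 ± 0.328 TPM in BAT and 0.876 ± 0.306 TPM in muscle (0.35 ± 0.15, limma adjusted p = 0.0478). Of the 3 in groups 7 and 8, Hoxc8 was higher in BAT, Hoxd8 was higher in muscle and Hoxa7 was not called. Hoxa5 was read at 10.6, 14.4, 11.2 and 10.2 TPM in BAT and 1.55, 1.99, 1.61 and 1.66 TPM in muscle (2.21 ± 0.12). Hoxc5 averaged 8.27 ± 1.63 and 0.834 ± 0.316 TPM (2.34 ± 0.16). At the other end, Hoxc10 was read at 0.431, 0.519, 0.451 and 0.533 TPM in BAT and at 41.9, 35.0, 35.0 and 41.3 TPM in muscle (-4.72 ± 0.09). Hoxa10 averaged 0.155 ± 0.0353 and 14.0 ± 1.20 TPM (-3.69 ± 0.09). For neither Hoxc10 nor Hoxa10 did BAT and muscle overlap. Neighbouring Hox transcripts can share exons, so that values within a cluster may not be independent. The fat depot and the muscle sampled were not named, so tissue and body position cannot be told apart.

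**Figure D3:**
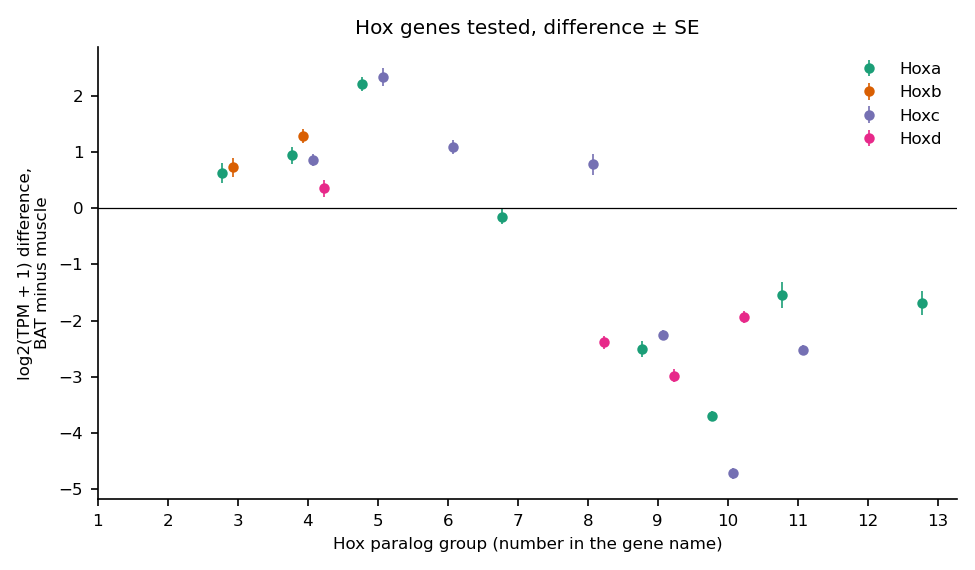
Difference in log2(TPM + 1), BAT minus muscle, ± SE (y axis) of the 21 Hox genes tested against the paralog number in the gene name (x axis), coloured by cluster. Groups 3 to 6 lie above 0 and groups 9 to 13 lie below it, with Hoxc10 lowest at -4.72.

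Contractile genes gave the deepest contrast. All 13 fast fibre genes, 11 slow fibre genes and 25 sarcomere and Z-disc genes tested were higher in muscle, with medians of -6.01, -3.23 and -5.39. Skeletal actin (Acta1, chromosome 8, 123891769 to 123894751) was read at 16105, 16084, 18428 and 20347 TPM in muscle and at 260, 269, 289 and 292 TPM in BAT. The heart and liver means were 307 and 273 TPM, so BAT did not stand above the floor. The fast myosin Myh4 was read at 11426, 9566, 12154 and 13518 TPM in muscle and 160, 168, 180 and 164 TPM in BAT, beside 176 TPM in liver. Among fast heavy chains of muscle, Myh4 (11666 ± 1647 TPM) far exceeded Myh1 (762 ± 166 TPM) and Myh2 (623 TPM), and the slow chain Myh7 was at 143 ± 27.7 TPM. These chains are near-identical in stretches, so reads may be shared between them. Nebulin (Neb), the thin filament ruler, had the largest difference among genes with an established name, -6.30 ± 0.07, at 2041 TPM in muscle and 25.0 TPM in BAT, and its liver mean was 32.4 TPM.

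The smaller median of the slow fibre genes came with some heart-type members whose BAT readings were high beside those of other slow genes. Myl2 and Myl3 averaged 97.6 and 48.2 TPM in BAT, against 2.37 TPM for Myh7 and 2.74 TPM for Tnnt1. In muscle Myl2 and Myl3 averaged 523 and 446 TPM. Tnnc1, the slow and cardiac troponin C, averaged 241 TPM in muscle, 24.4 TPM in BAT and 1712 TPM in heart. Liver means of Myl2, Myl3 and Tnnc1 were 120, 56.4 and 33.7 TPM, so BAT did not stand above the floor. Desmin (Des), an intermediate filament singled out after its values were seen, averaged 1088 ± 58.7 TPM in muscle and 51.2 ± 3.32 TPM in BAT. Its BAT values of 48.0 to 55.2 TPM lay above the liver mean of 24.0 TPM, at 4.71% of muscle.

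Calcium handling followed the contractile genes. Of 21 excitation-contraction and calcium cycling genes, 19 were higher in muscle and 1 higher in BAT (median -5.01). The fast calcium pump Atp2a1 (SERCA1) averaged 9605 TPM in muscle and 143 TPM in BAT (-6.06 ± 0.09), and the release channel Ryr1 283 ± 21.5 and 4.08 ± 0.281 TPM. BAT levels of both were near those of liver (134 and 4.21 TPM). The pump Atp2a2 (SERCA2), which is used for calcium-based heat in fat, averaged 109 TPM in BAT and 209 TPM in muscle (-0.93 ± 0.12), but liver was at 98.6 TPM and heart at 3287 TPM. Sarcolipin (Sln), which uncouples the pump in muscle, was read at only 1.88, 2.27, 2.47 and 2.97 TPM in muscle and 0.322 to 0.670 TPM in BAT, against 76.0 TPM in heart. Phospholamban (Pln), the cardiac pump inhibitor, was at 51.3 ± 10.1 TPM in muscle and 32.2 ± 2.26 TPM in BAT, with liver at 42.1 TPM. Both lay at or under 4% of heart, and with values raised to 4% of the highest tissue mean neither differed. The member higher in BAT was Atp2a3 (SERCA3), at 3.85 and 2.41 TPM (0.52 ± 0.13, adjusted p = 0.00493). All 10 neuromuscular junction and excitability genes tested were higher in muscle (median -3.05), among them the chloride channel Clcn1 at 93.0 TPM and the kinase of synapse formation Musk at 12.1 TPM. In BAT they stood at 1.24 and 0.134 TPM.

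Mitochondrial carriers linked to proton leak divided by isoform. Of 9 uncoupling and adenine nucleotide carrier genes, 4 were higher in BAT and 4 in muscle. Taken alone, these counts show little, since 42.0% and 33.9% of all genes tested were so called. Ucp3, the muscle uncoupling protein relative, was read at 119, 104, 135 and 166 TPM in muscle and at 49.7, 60.2, 38.5 and 33.3 TPM in BAT (-1.52 ± 0.19, adjusted p = 3.17e-05). BAT was lower but well above liver, at 3.07 TPM. Ucp1 made up 98.5% ± 0.593 of the Ucp1 and Ucp3 sum in BAT and 32.8% ± 4.36 in muscle, where the Ucp1 part was at the floor. The ADP/ATP carrier of muscle, Slc25a4, was read at 3130, 3090, 3294 and 3153 TPM in muscle and 281, 308, 295 and 324 TPM in BAT (-3.39 ± 0.06). The general carrier Slc25a5 was read at 370, 432, 463 and 438 TPM in BAT and 55.7 to 58.2 TPM in muscle (2.88 ± 0.08). Neither gene overlapped between tissues, and each tissue's main carrier was the other's lesser one. Slc25a42, a coenzyme A carrier, was higher in BAT (2.67 ± 0.08) and Ucp2 was too (1.45 ± 0.32). Ucp2 was read at 22.3, 23.6, 62.3 and 46.2 TPM in BAT libraries 1 to 4, the order of their macrophage markers, whose part in this was not tested.

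Creatine cycle genes, of which 7 were tested, were called in BAT for 1 and in muscle for 4. With values raised to 4% of the highest tissue mean, 3 were called in muscle. The muscle creatine kinase Ckm averaged 11663 TPM in muscle and 218 TPM in BAT, near its liver mean of 207 TPM. The brain-type kinase Ckb, proposed to drive futile creatine cycling in fat, was read at 22.6, 22.0, 24.9 and 25.4 TPM in BAT and 3.16, 4.30, 2.93 and 2.75 TPM in muscle (2.54 ± 0.12, adjusted p = 1.02e-08). Ckb thus held 9.80% ± 0.615 of the pair in BAT, where the Ckm part was at the floor, and 0.0286% ± 0.00848 in muscle. The mitochondrial kinase Ckmt2 and the creatine transporter Slc6a8 were higher in muscle (-5.23 ± 0.08 and -1.91 ± 0.10).

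Adrenergic and cyclic AMP genes did not all favour BAT. Of 15 tested, 10 were higher in BAT and 4 in muscle (median 1.56), beside 42.0% and 33.9% of all genes tested. The beta 3 receptor Adrb3 was read at 134, 151, 202 and 177 TPM in BAT and at 2.90 to 3.79 TPM in muscle (5.30 ± 0.13, adjusted p = 7.34e-11). All BAT values lay above all muscle values. Adrb1 and Adra1a, the beta 1 and alpha 1A receptors, were higher in BAT (3.16 ± 0.12 and 3.03 ± 0.09). Gnas, which encodes the stimulatory G protein, was 2.95-fold higher in BAT at 2256 ± 75.0 TPM. The type II regulatory subunits of protein kinase A went opposite ways. Prkar2b averaged 409 ± 9.52 TPM in BAT and 8.28 ± 0.273 TPM in muscle, and Prkar2a 7.21 ± 1.07 and 75.5 ± 5.68 TPM. Among phosphodiesterases that end the signal, Pde3b was higher in BAT (4.23 ± 0.09) and Pde4d in muscle (-1.57 ± 0.11).

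**Figure D4:**
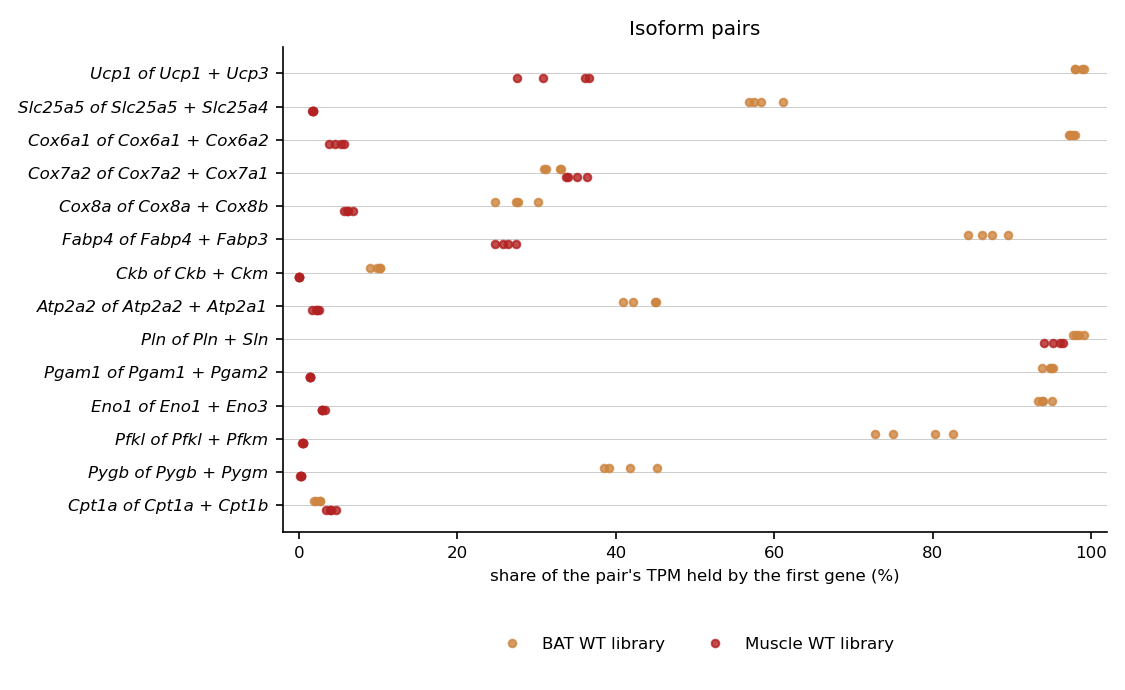
Share of a gene pair's summed TPM held by its first gene (x axis, %), for 14 pairs, with 1 point per wild-type library of BAT and muscle. Cox6a1, Pgam1, Eno1 and Pfkl hold most of the pair in BAT and under 10% in muscle, whereas the Cox7a2 share is close, at 32.0% ± 1.15 and 34.8% ± 1.23.

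Lipid uptake, storage and release favoured BAT, with 19 of 22 genes higher there and 1 higher in muscle (median 2.81). Plin1, which guards the lipid droplet, averaged 832 TPM in BAT and 19.0 TPM in muscle. The lipases Lipe and Pnpla2 averaged 634 and 1277 TPM in BAT, with differences of 4.67 ± 0.09 and 2.93 ± 0.06. Lipoprotein lipase (Lpl) was nearer, at 898 and 284 TPM (1.68 ± 0.13). Fabp3, the heart and muscle fatty acid carrier, did not differ by test. It was read at 1645, 1470, 1865 and 1835 TPM in BAT and 1575, 1867, 1756 and 1235 TPM in muscle, and the groups overlapped (0.09 ± 0.13, adjusted p = 0.522). The gene higher in muscle was the lipoprotein receptor Vldlr, at 79.6 ± 10.1 against 32.9 ± 2.88 TPM.

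Fatty acid and triglyceride synthesis genes were higher in BAT in 18 of 20 cases, with 1 higher in muscle (median 3.35). Fatty acid synthase (Fasn, chromosome 11, 120805846 to 120824547) had the largest difference in BAT's favour and a wide BAT range. It was read at 1547, 2940, 1494 and 877 TPM in BAT and at 25.3 to 30.9 TPM in muscle, close to the heart mean of 25.6 TPM (5.73 ± 0.28, adjusted p = 2.06e-08). Library 2 was highest and library 4 lowest. Tkt, the transketolase of the pentose phosphate path, ranked the BAT libraries in the same order, at 753, 1143, 694 and 551 TPM against 16.1 to 21.2 TPM in muscle. Elovl3, an elongase of brown fat, did too for the highest and lowest, at 16.8, 27.4, 17.0 and 7.36 TPM. Scd1, the desaturase, was even, between 3282 and 4564 TPM in BAT and at a mean of 132 TPM in muscle. Malic enzyme (Me1) was the exception, at 95.2 ± 21.9 TPM in BAT and 131 ± 11.5 TPM in muscle with 1 library crossing (-0.49 ± 0.15, adjusted p = 0.0150).

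Mitochondrial fatty acid oxidation genes went 1 way. All 20 were higher in BAT, with a median of 1.98 and a range from 0.48 to 2.81. Acaa2, the last thiolase of the spiral, was read at 1772, 1968, 1940 and 1817 TPM in BAT and 245, 298, 301 and 227 TPM in muscle. Acadl, the long-chain dehydrogenase, averaged 1440 ± 54.6 and 288 ± 34.3 TPM (2.32 ± 0.09). Cpt1b, the rate-limiting carnitine transferase of both tissues, was read at 402, 386, 463 and 451 TPM in BAT and 154 to 177 TPM in muscle, a 2.57-fold gap. Its liver isoform Cpt1a held 2.32% ± 0.365 of the pair in BAT and 4.03% ± 0.509 in muscle. The Cpt1a difference, 0.48 ± 0.15, was 0.20 (adjusted p = 0.077) with BAT libraries 1 and 2 alone. It was 0.37 (adjusted p = 0.0581) with values raised to 4% of the highest tissue mean, which left 19 of the 20 genes called.

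Glycolysis divided by isoform rather than by direction alone. Of 21 genes, 6 were higher in BAT and 13 in muscle (median -0.65). The muscle phosphofructokinase Pfkm averaged 1565 TPM in muscle and 54.3 TPM in BAT (-4.82 ± 0.07). The liver-type Pfkl was read at 145, 170, 250 and 217 TPM in BAT and averaged 7.30 TPM in muscle (4.54 ± 0.15), and the platelet-type Pfkp was also higher in BAT (3.26 ± 0.14). Pfkl was 77.7% ± 4.54 of the Pfkl and Pfkm sum in BAT and 0.466% ± 0.0301 in muscle. Phosphoglycerate mutase showed the same exchange, with Pgam1 94.7% ± 0.624 of its pair in BAT and 1.39% ± 0.0394 in muscle. For enolase, Eno1 was 94.0% ± 0.738 and 2.99% ± 0.193. Pgam1 and Eno1 have processed copies in the genome, so their counts may include reads from these. Aldolase and lactate dehydrogenase differed by less, and their BAT levels were not at the floor. Aldoa averaged 16285 ± 1009 TPM in muscle and 2343 ± 294 TPM in BAT, and Ldha, which makes lactate, 2262 ± 198 and 860 ± 91.8 TPM. Hexokinase 2 (Hk2) was read at 57.8, 58.5, 96.0 and 78.2 TPM in BAT and 96.2 to 106 TPM in muscle (-0.50 ± 0.15, adjusted p = 0.0103), with library 3 of BAT at the edge of muscle. With BAT libraries 3 and 4 alone the Hk2 difference was -0.22 (adjusted p = 0.0572). Carriers of lactate also differed by isoform. Slc16a3, the exporter of fast fibres, averaged 260.0 ± 49.7 TPM in muscle and 3.84 TPM in BAT, which was the liver level. Slc16a1, another carrier of monocarboxylates such as lactate, averaged 55.9 ± 7.97 TPM in BAT and 20.9 ± 1.99 TPM in muscle.

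Glycogen genes were higher in muscle in 12 of 17 cases and higher in BAT in 5 (median -2.16). Muscle phosphorylase Pygm averaged 2950 TPM in muscle and 48.5 TPM in BAT, beside 47.1 TPM in liver. The 5 in BAT's favour were the liver synthase Gys2, the liver and brain phosphorylases Pygl and Pygb, the branching enzyme Gbe1 and Pgm2. Gys2 was read at 33.7, 41.9, 34.9 and 29.2 TPM in BAT and 2.55 to 3.29 TPM in muscle (3.23 ± 0.12). Pygl was read at 127, 189, 123 and 102 TPM in BAT and 5.66 to 6.41 TPM in muscle (4.24 ± 0.16). BAT thus carried isoforms named for liver, whose own means were 159 TPM for Gys2 and 207 TPM for Pygl. It also carried the muscle synthase Gys1, at 56.0 ± 1.55 TPM, above its Gys2. Gys1 averaged 144 ± 7.29 TPM in muscle and 4.49 TPM in liver.

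**Figure D5:**
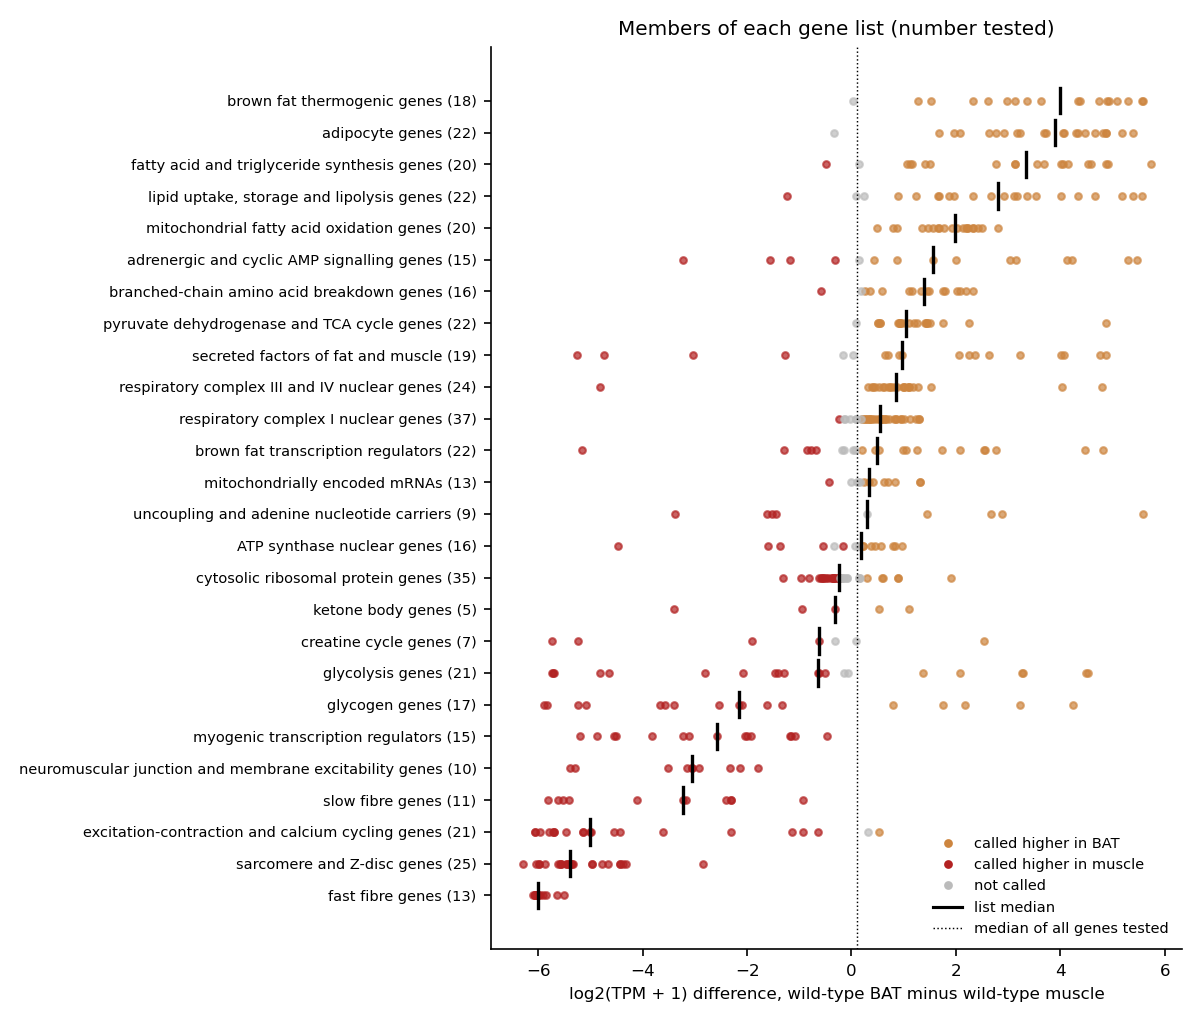
Difference in log2(TPM + 1), BAT minus muscle (x axis), of every tested member (points) of 26 gene lists, with list medians (bars) and the median of all 12192 genes tested (dotted line, 0.11). Fast fibre genes form the left end (median -6.01) and thermogenic genes the right end (3.99), and glycolysis, glycogen and adrenergic lists reach to both sides.

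Oxidative metabolism was higher in BAT by modest factors. Of 22 pyruvate dehydrogenase and citric acid cycle genes, 21 were higher in BAT and 0 in muscle (median 1.05). Citrate synthase (Cs) averaged 764 and 400 TPM (0.93 ± 0.08). Idh3b had a far larger value (4.88 ± 0.06) than its partner subunits Idh3a (0.93 ± 0.07) and Idh3g (1.44 ± 0.06). Some of its transcripts may be among those not matched to the annotation, which was not tested, so its muscle level of 21.1 TPM may be incomplete. Complex I genes were higher in BAT in 30 of 37 cases and in muscle in 1, Ndufb2, with a median of 0.54. Ndufb2 differed by -0.23 and lost its call without BAT library 4 (adjusted p = 0.0625) or muscle library 3 (adjusted p = 0.0717). Complex III and IV genes were higher in BAT in 23 of 24 cases and in muscle in 1, Cox6a2 (median 0.85). With median-ratio scaling the complex I counts became 23 and 3 and the complex III and IV counts 21 and 1.

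The largest respiratory chain differences were isoform exchanges in complex IV. Cox6a1, the liver isoform, was read at 1803, 2099, 1656 and 1497 TPM in BAT and 55.5 to 68.1 TPM in muscle (4.80 ± 0.11). Cox6a2, the heart and muscle isoform, was read at 40.4 to 46.6 TPM in BAT and 1120, 1167, 1248 and 1389 TPM in muscle (-4.81 ± 0.08), with liver at 45.7 TPM. The exchange was nearly complete in both directions. For subunit 8, Cox8a was 27.5% ± 2.22 of its pair in BAT and 6.19% ± 0.483 in muscle, and the other isoform, Cox8b, led in both tissues and was higher in BAT. Subunit 7A nearly kept its proportions. The Cox7a2 share was 30.9% to 33.1% in BAT and 33.7% to 36.4% in muscle, a small shift without overlap. Both Cox7a1 (1.27 ± 0.07) and Cox7a2 (1.09 ± 0.08) were higher in BAT.

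ATP synthase did not follow the rest of the chain. Of 16 genes, 8 were higher in BAT and 5 higher in muscle, beside 42.0% and 33.9% of all genes tested. The median was 0.18, against 0.11 over all genes. With median-ratio scaling the ATP synthase median was 0.05 and the counts were 5 and 6. The catalytic subunit Atp5b was higher in BAT, at 3945, 4037, 4505 and 4693 TPM against 1842, 2104, 2520 and 2316 TPM (0.97 ± 0.10). Atp5g1, 1 of 3 genes for the c subunit of the proton-driven rotor, was read at 39.6, 47.5, 51.1 and 46.1 TPM in BAT and 1011, 1012, 1150 and 984 TPM in muscle (-4.47 ± 0.09). It was also below its liver mean of 389 TPM and its heart mean of 1660 TPM. Atp5g3 was lower in BAT too (-1.60 ± 0.09), and Atp5g2 was at 13.5 and 13.0 TPM (0.06 ± 0.16, adjusted p = 0.754; named after its values were seen). The c subunit genes encode the same mature protein, and the 3 together were lower in BAT. Atp5c1 and Atp5j were lower in BAT as well (-0.55 and -1.36). The fifth, Atp5f1, differed by -0.16 and lost its call without BAT library 1 or 4 or without muscle library 1, 2 or 3 (adjusted p of 0.0922 to 0.11). The 13 mitochondrially encoded mRNAs were higher in BAT in 8 cases and in muscle in 1 (median 0.33; 5 and 1 with median-ratio scaling). mt-Atp6 averaged 35490 ± 2678 TPM in BAT and 14518 ± 2806 TPM in muscle, whereas mt-Nd1 was at 24308 ± 919 and 24549 ± 1301 TPM with overlapping values.

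Branched-chain amino acid breakdown, a fuel path of brown fat, was higher in BAT in 14 of 16 genes and in muscle in 1 (median 1.39). Bckdhb, a subunit of the committed dehydrogenase, was read at 105, 114, 112 and 102 TPM in BAT and 18.5 to 22.5 TPM in muscle (2.32 ± 0.08). The carrier Slc25a44 was higher in BAT as well (1.10 ± 0.08). The gene higher in muscle was Bckdk, the kinase that switches the dehydrogenase off, at 108 ± 7.05 against 72.6 ± 11.7 TPM (-0.58 ± 0.11). Among 5 ketone body genes, Oxct1 and Bdh1, which burn ketones, were higher in muscle (-0.95 ± 0.10 and -3.40 ± 0.12) and Acat1 was higher in BAT (1.11 ± 0.07).

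Secreted factors were called higher in BAT for 13 of 19 and higher in muscle for 4 (median 0.97). Nrg4, a growth factor of brown fat, was read at 90.7, 88.5, 104 and 105 TPM in BAT and 2.06 to 3.01 TPM in muscle (4.77 ± 0.10). Angptl4, which inhibits lipoprotein lipase, was also higher in BAT (4.01 ± 0.07). Myostatin (Mstn), which limits muscle growth, was read at 54.3, 35.3, 39.7 and 45.7 TPM in muscle and 0.544 to 0.805 TPM in BAT (-4.74 ± 0.13). Musclin (Ostn), Fndc5 and Il15 were the other 3 higher in muscle. Cytosolic ribosomal protein genes were slightly lower in BAT, with 20 of 35 called in muscle and 6 in BAT (median -0.24). Median-ratio scaling made these 26 and 5 (median -0.37). The median was -0.08 when rescaled without mitochondrial and top genes and -0.02 in the Mut libraries. Among the 6 called in BAT, Rpl3 had the largest difference, at 210 ± 20.7 TPM in BAT and 55.6 ± 3.61 TPM in muscle (1.90 ± 0.09).

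Markers of other cells moved as well, and their part in the results above was not tested. Endothelial markers were higher in BAT for 7 of 8 and in muscle for 1 (median 1.12). Their sums were 175 to 215 TPM in BAT and 68.9 to 87.6 TPM in muscle. Kdr, the main VEGF receptor, averaged 21.2 ± 1.52 and 5.42 ± 0.467 TPM. Red cell genes were higher in BAT for 5 of 5, with sums of 2096 to 3864 and 545 to 781 TPM, and alpha and beta globin copies are near-identical. Macrophage markers were called in BAT for 5 of 8 and in muscle for 0. With BAT libraries 3 and 4 alone all 8 were called in BAT, and with 1 and 2 alone 2 were called in BAT and 1 in muscle. With values raised to 4% of the highest tissue mean, 2 were called in BAT. C1qa was read at 11.3, 14.9, 39.8 and 28.5 TPM in BAT and 8.01 to 10.1 TPM in muscle. Smooth muscle and pericyte markers split evenly, with 2 of 5 called on each side and sums of 158 to 192 TPM in BAT and 130.0 to 162 TPM in muscle. Fibroblast markers were higher in muscle for 4 of 8 and in BAT for 2, with sums of 346 to 419 TPM in muscle and 192 to 338 TPM in BAT. Of 5 satellite cell markers 1, Cdh15, passed the filter on low values and was higher in muscle (-2.53 ± 0.10). Of 4 Schwann cell markers tested, 2 were higher in BAT and 1 in muscle. Hepatocyte and cardiomyocyte markers were called lower in BAT (10 of 10 and 6 of 6) at levels of the floor. With values raised to at least 4% of the highest tissue mean, 0 of these 16 were called.

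The libraries labelled Mut gave a second view of the same tissue contrast. Per the labels these mice lack SMIM30, a small membrane protein whose gene is listed as 2610001J05Rik. Its RNA was read at 28.6, 27.3, 29.3 and 33.0 TPM in Mut BAT against 23.5, 26.8, 32.0 and 32.3 TPM in WT BAT, with overlap. In muscle it was 24.3, 25.9, 27.3 and 26.1 TPM in Mut against 35.7, 33.8, 32.9 and 34.8 TPM in WT, without overlap. The RNA was lower in Mut muscle but far from absent, and it did not separate the labels in BAT. What the allele removes is not given in the sources used here.

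Of 12474 genes tested in Mut, 9896 were called (79.3%), 5812 higher in BAT (46.6%) and 4084 higher in muscle (32.7%). Of the 5121 genes called higher in BAT in WT, 5090 were tested in Mut, 4894 were called higher in BAT and 0 higher in muscle. Of the 4139 called higher in muscle, 4101 were tested, 3692 were called higher in muscle and 1 was called higher in BAT, a gene with a provisional name (Gm48161). Ucp1 had a difference of 5.66 ± 0.11 in Mut and Acta1 one of -5.55 ± 0.24. The genotype difference of the tissue contrast was called for 0 of 12366 genes (0%) by limma, while 727 and 254 had an unadjusted p under 0.05 toward BAT and toward muscle. The smallest p was for Pcdhgc3, a protocadherin, with an interaction of -0.78 (limma adjusted p = 0.219). The next were Cxcr4, a chemokine receptor (1.37), Met (-0.61), Hoxc4 (0.72) and Eid1 (0.66), with the same adjusted p.

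Some slow fibre genes were uneven in the Mut set. Myh7 was read at 189, 7.26, 1.45 and 48.8 TPM in Mut muscle, against 121, 161, 173 and 118 TPM in WT muscle. Tnnt1, slow troponin T, was read at 258, 13.1, 6.43 and 86.7 TPM in Mut muscle and 181 to 262 TPM in WT muscle. In the same Mut muscle libraries fast Myh4 was high throughout, at 8902 to 16092 TPM. Mut BAT library 1 also held Myh7 and Tnnt1 at 22.3 and 28.8 TPM, against 1.49 to 3.31 TPM for the 2 genes in the other Mut BAT libraries. Muscle fibre markers summed to 1168 to 2980 TPM in Mut BAT and to 1293 to 1395 TPM in WT BAT. The Mut tissue contrast was then -2.06 ± 1.23 for Myh7 (adjusted p = 0.146) and -2.52 ± 1.07 for Tnnt1 (adjusted p = 0.0512), and their genotype differences had adjusted p of 0.570 and 0.544. Differences in the muscle sampled and in muscle tissue carried with the fat cannot be told apart from genotype here.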

How the data were processed

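The table holds TPM per transcript for 32 libraries, made by the authors with Salmon per the submitters' processing notes. Its version, the transcriptome and the build were not given in the sources used here. Of 147493 transcript identifiers, 136081 (92.26%) matched GENCODE mouse M21 (GRCm38) and were summed over 51510 genes. Those unmatched held 0.451% to 0.856% of TPM, and their genes may be incomplete. TPM scales each library to the same total, so the mitochondrial share moves all other genes.

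Genes averaging 1 TPM or more across the 8 WT libraries were compared as log2(TPM + 1) with limma 3.58.1 (R 4.3.3; moderated test with a mean-variance trend, Benjamini-Hochberg adjustment), with no block. The scripts were tested on simulated data. P-values measure the spread between these libraries. Same-numbered libraries of the 2 tissues were not paired, since the labels do not say that a number marks 1 mouse. Their deviations correlated at -0.09 to 0.06 in WT, which cannot show whether they came from the same mouse.

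Members and lists were chosen with earlier results of these data known. Named genes are the 15 most different in each direction, leading and opposing list members, isoform pairs and the 5 genes of smallest genotype p. Hox genes other than Hoxc4, Hoxc8 and Hoxc10, and Atp5g2, Des and Ppargc1a, were chosen after their values were seen. Some genes are not reported here.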

Additional observations from a re-analysis of the deposited data

Results flagged for a closer look

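Single libraries stood far from the other 3 of their group for 12 of 332 gene and tissue groups tested, where chance gives about 1 in 20 groups (16.6 of 332). In WT BAT, library 4 was low for Gnas (2145 TPM) and Ndufb2 (286 TPM) and high for the fast myosin Myh2 (14.2 TPM against 8.01 to 8.65). BAT library 2 was low for Oxct1 (80.6 TPM) and library 3 was high for Casq1 (20.4 TPM), which is a floor value. In WT muscle, library 3 was high for Atp5g1 (1150 TPM), Atp5g3 (1317 TPM) and Pln (66.4 TPM against 45.4 to 47.4) and low for Myf6 (62.5 TPM against 85.3 to 89.7). Library 4 of muscle was high for Des (1175 TPM) and Neb (2108 TPM), and library 1 was low for Ppp1r1a (25.8 TPM). Without the library in question Ndufb2 lost its call and no gene named here turned to the other tissue.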

How the results depend on the processing

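Over 166 named genes and 21 alternatives, 3369 values kept their direction and side of the threshold, 68 lost the call, 5 gained one and 19 changed sign, and no called gene turned to the other tissue. Counts of called genes stayed within 1.5 times, except that requiring a mean of 5 TPM left 3297 genes higher in BAT, as fewer genes (7918) were tested. Leaving out 1 library gave 4753 to 5196 genes higher in BAT and 3883 to 4304 higher in muscle. With the replicate number as a block, counts were 5019 and 4011 (Mut 5671 and 3960), the genotype difference remained at 0, and 2610001J05Rik, Atp5f1 and Trim16 lost their WT calls. The block is only a shared number here, since the labels do not say that a number marks 1 mouse. Deviations of same-numbered libraries correlated at -0.09 to 0.06 in WT and at -0.03 to 0.12 in Mut. The sign changes were all in genes that were not called. They were Ppargc1a (-0.10 with median-ratio scaling, -0.16 with array weights, -0.29 to 0.22 leaving out 1 library, -0.49 without BAT 3 and 4), Fabp3 (-0.04 with that scaling, -0.03 to 0.17 leaving out 1 library, -0.03 without BAT 3 and 4), Atp5g2 (-0.06 with that scaling, -0.05 to 0.21 leaving out 1 library, -0.09 without BAT 1 and 2), Cxcr4 (-0.03 to 0.30 leaving out 1 library, -0.20 without BAT 3 and 4), Eid1 (-0.03 and -0.04), Phlda3 (-0.05), Dusp10 (0.06) and mt-Nd1 (0.01). The smooth muscle marker median, -0.19, was 0.08 at 5 TPM or with rescaling and 0.07 without BAT 1 and 2. The removal of BAT library pairs was added after seeing the data. The cause of these changes was not tested. TPM keeps no depth, so no counting error can be given for low levels.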

Other observations

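A search over all genes, made after the values were seen, asked which RNAs BAT and muscle share against heart and liver. It kept the 10 genes with an established name that had at least 5 TPM in both tissues and stood at least 4 times above both heart and liver in each. Among them were Apol6, Cib2, Dusp10, Gpd2, Pfkfb3, Phlda3, Pla2g7, Ppp1r1a and Trim16. Gpd2, the mitochondrial arm of the glycerol phosphate shuttle, averaged 157 TPM in BAT and 56.7 TPM in muscle, against 4.97 TPM in heart and 13.2 TPM in liver. Phlda3, a target of p53, averaged 222 TPM in BAT and 210.0 TPM in muscle, against 10.7 and 6.94 TPM. Pfkfb3, which makes the activator of phosphofructokinase, averaged 104 and 59.8 TPM in the pair, and Cib2, a calcium-binding protein, 162 and 76.2 TPM. Pfkfb3 was uneven in muscle, where library 1 was at 105 TPM and library 2 at 38.2 TPM. These are levels in 4 tissues and 16 libraries, given as a description with no test of sharing.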
